A study of Mus musculus with 6 samples.

Results

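The 9 genes described here encode immunoglobulin constant regions, the part of an antibody that sets its class. They were the rows of the deposited count table named Ighm, Ighd, Ighg1, Ighg2b, Ighg2c, Ighg3, Ighe, Igha and Igkc, 9 of 54532 gene rows, and 8 of the 9 had enough reads to be tested. RNA was sequenced from splenic CD4+ T cells; the mice were C57BL/6 in the acute phase of EAE (experimental autoimmune encephalomyelitis), a mouse model of multiple sclerosis. The Ogt-KD group (3 libraries) was Ogtfl/wt CD4-Cre, with 1 floxed allele of Ogt, which encodes O-GlcNAc transferase, and Cre recombinase under a Cd4 promoter, which is active in the T cell lineage. The control group (3 libraries) was labelled wild type, so the Cre transgene and the floxed allele cannot be told apart as sources of a difference. All 6 libraries shared the strain, the disease and its phase; the labels used here give neither the sex of the mice nor whether a library came from 1 mouse.

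Antibodies are made by B cells and, in far larger amounts, by plasma cells, not by T cells. A naive B cell makes IgM and IgD from Ighm and Ighd by alternative splicing, and class switch recombination then joins the same variable region to an IgG, IgE or IgA constant gene. Cytokines from helper T cells steer that choice: interferon gamma favours IgG2c in C57BL/6 mice, interleukin 4 favours IgG1 and IgE, and transforming growth factor beta favours IgA. In a preparation of CD4+ T cells these transcripts can come with B lineage cells or their RNA, but their source was not tested here. In bulk RNA fewer cells of a type and less RNA per cell cannot be told apart.

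The 8 heavy chain genes lie in a row on the minus strand of mouse chromosome 12 (build GRCm38), from Ighm at chr12:113418558-113422730 through Ighd at chr12:113406604-113416324, Ighg3 at chr12:113356224-113361232, Ighg1 at chr12:113325240-113330523, Ighg2b at chr12:113302965-113307933, Ighg2c at chr12:113285325-113288932 and Ighe at chr12:113269260-113273248 to Igha at chr12:113254830-113260236. Igkc, the kappa light chain constant gene, is a single exon on the plus strand at chr6:70726435-70726966. The IgG subclasses differ most visibly in the hinge, the flexible stretch between the antigen-binding arms and the stem, where cysteines join the heavy chains. Its coding sequence is exon 2 of each gene; below it is shown 5′ to 3′ on the coding strand (GENCODE release M21), with in-frame cysteine codons in capitals, because the hinge exons differ in length and cysteine number where much of the rest of the genes is alike.
Ighg3 hinge exon, chr12:113360529-113360576: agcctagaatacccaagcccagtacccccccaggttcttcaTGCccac
Ighg1 hinge exon, chr12:113329844-113329882: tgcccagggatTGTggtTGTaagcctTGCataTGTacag
Ighg2b hinge exon, chr12:113307261-113307326: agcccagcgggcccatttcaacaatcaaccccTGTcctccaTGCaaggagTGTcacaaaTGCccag
Ighg2c hinge exon, chr12:113288263-113288325: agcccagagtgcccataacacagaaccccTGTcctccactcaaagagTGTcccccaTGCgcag
The hinge exon held 1 cysteine codon in Ighg3, 4 in Ighg1, 4 in Ighg2b and 3 in Ighg2c.

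Outside the hinge the IgG genes are close enough for short reads to be ambiguous, and most so for Ighg2b and Ighg2c. Their coding sequences were 85.73% identical, against 74.12% to 75.94% for the other IgG pairs. The longest run the pair shares is 78 bases of exon 3, shown in capitals with 10 flanking bases on either side.
Ighg2b, chr12:113306859-113306956: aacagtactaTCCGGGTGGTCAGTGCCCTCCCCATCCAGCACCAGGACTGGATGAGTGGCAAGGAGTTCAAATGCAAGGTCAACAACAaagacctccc
Ighg2c, chr12:113287859-113287956: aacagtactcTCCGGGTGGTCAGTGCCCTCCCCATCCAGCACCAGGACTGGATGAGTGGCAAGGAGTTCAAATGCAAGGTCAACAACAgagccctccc
Of the 50-base stretches of its annotated transcripts, 5.49% were shared with another gene for Ighg2c, 4.15% for Ighg2b, 1.58% for Ighg3 and 0.393% for Ighg1, and none for the other 5 members. No 100-base stretch of any member was shared. How reads matching more than 1 gene were counted is not given in the sources used here, so a small part of the Ighg2b and Ighg2c counts is uncertain.

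Libraries held 18127031 to 25683453 reads counted to genes. T cell markers were high throughout, with Cd4 at 739 to 903 CPM (counts scaled to library size) and Cd3e at 241 to 329, and the B cell marker Ms4a1 (11.8 to 15.1) was low but present in every library. Values below are listed for control replicates 1, 2 and 3, then for the Ogt-KD replicates in the same order, and log2 fold changes are Ogt-KD over control. Ogt, the targeted gene, was 599, 628 and 562 CPM in control libraries against 662, 599 and 459; the groups overlapped, and the log2 fold change was -0.06 (SE 0.15, adjusted p = 0.981 by edgeR's quasi-likelihood test with Benjamini-Hochberg adjustment). Of 16075 genes tested, 1 was called at an adjusted p under 0.05 (0.00622%), and 47 (0.292%) with the replicate number as a block.

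No constant gene differed between Ogt-KD and control beyond the spread between replicates. Of the 8 tested members edgeR's quasi-likelihood test called 0, DESeq2 and limma-voom each called 0, and 0 were under an unadjusted p of 0.05, against 7.52% of all genes tested. Leaving out control replicate 1 or control replicate 2 put 1 member under it, Ighg2c and Ighm respectively. The groups overlapped in CPM for 8 of 8. Of all genes tested, 13.3% did not overlap (7.43% with Ogt-KD higher and 5.88% with Ogt-KD lower). Among 8 genes such shares leave few or none, so these counts do not set the members apart from other genes. The members' median log2 fold change was -0.11, with 2 above 0 and 6 below, against a median of -0.00 over all genes.

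Per kilobase of deposited gene length the kappa and IgM constant genes had the highest median levels. On the deposited FPKM scale (fragments per kilobase of gene, scaled to library size) the median level over the 6 libraries was 811 for Igkc (227 to 1141), 340 for Ighm (229 to 476) and 275 for Igha (80.1 to 331). Ighg2c followed at 54.8 (11.9 to 249), at rank 4 in all 6 libraries, then Ighg2b at 19.6 (4.49 to 32.8), Ighd (8.35 to 12.4), Ighg1 at 6.60 (3.34 to 17.3), Ighg3 at 4.15 (0.466 to 10.01) and Ighe, last in all 6, at 0.106 (0.0354 to 0.994). Igkc ranked first in 5 of 6 libraries and Ighm in control replicate 1. The ranges of neighbours in this order overlapped at every step. The gap between Ighg2c and the other IgG genes depends on gene length. The deposited length is 1326 bases for Ighg2c but 2592, 2678 and 2512 for Ighg1, Ighg2b and Ighg3. Median CPM, which takes no account of length, gave the IgG genes the same order. It was 73.2 for Ighg2c, 52.3 for Ighg2b, 17.2 for Ighg1 and 10.5 for Ighg3.

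**Figure D1:**
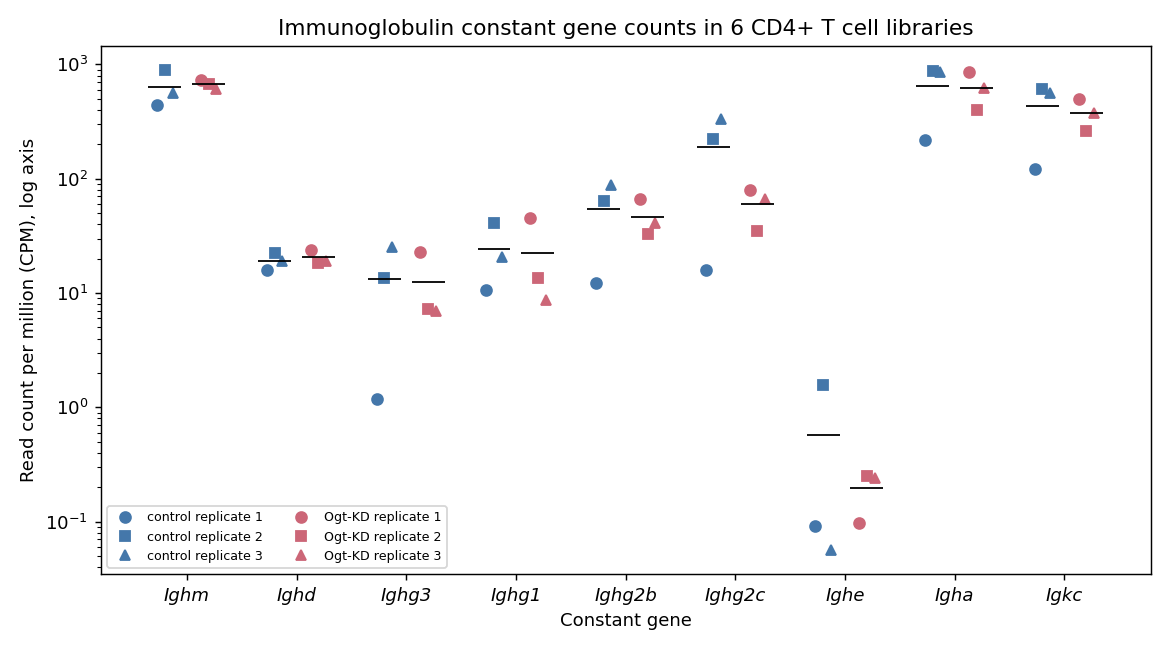
CPM of each constant gene (x axis) on a log y axis, 1 point per library, with blue control and red Ogt-KD points shaped by replicate number and black lines at group means (n = 3). Ighm and Ighd span narrower ranges over the libraries than the IgG genes, Igha and Igkc, with control replicate 1 lowest for all of these but Ighg1.

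Ighm encodes the mu chain of IgM, the first class a B cell makes. Its level was 438, 895 and 567 CPM in control and 725, 677 and 613 in Ogt-KD libraries, 633 ± 235 against 672 ± 56.3 (SD, n = 3). Control replicates held both the lowest and the highest value, and the log2 fold change was 0.08 (SE 0.25, 95% interval -0.51 to 0.68, edgeR adjusted p = 0.981). Without control replicate 2, the highest library, it was 0.42 (edgeR adjusted p = 0.749). Ighd, the delta chain of the IgD receptor on mature naive B cells, was 16.1, 22.3 and 18.9 against 23.8, 18.5 and 19.2 CPM. This was the steadiest member: its highest library was 1.48 times its lowest, and the log2 fold change was 0.10 (SE 0.17, 95% interval -0.29 to 0.49, edgeR adjusted p = 0.970). The count ratio of Ighm to Ighd, both cut from the same transcript, stayed between 27.2 and 40.2 and overlapped between groups.

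Ighg2c, the interferon-favoured IgG subclass, had the fold change farthest from 0 of the 8 tested members with all 6 libraries. It was 16.0, 222 and 331 CPM in control and 79.4, 34.9 and 67.1 in Ogt-KD libraries, 190 ± 160 against 60.5 ± 23.0. Control replicates 2 and 3 lay above all Ogt-KD libraries and control replicate 1 below them all. The log2 fold change was -1.65 (SE 0.89, 95% interval -3.76 to 0.46, edgeR unadjusted p = 0.108, adjusted p = 0.738), and in the authors' deposited table it was -1.66 with an adjusted p of 0.901. Without control replicate 1 it was -2.19, and edgeR's quasi-likelihood test gave an unadjusted p of 0.000854 that did not pass the adjustment over all genes (adjusted p = 0.999993). Without control replicate 3 it was -0.99, and limma-voom gave -0.87.

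The other IgG genes showed no such pattern between groups. Ighg2b was 12.2, 63.6 and 88.2 against 66.6, 32.5 and 41.0 CPM, and its log2 fold change was -0.23 (SE 0.63, edgeR adjusted p = 0.981). Control replicates 1 and 3 held its extremes. Ighg1, the interleukin 4 subclass, was 10.7, 41.4 and 20.8 against 45.3, 13.6 and 8.67 CPM, and the fold change on the log2 scale was -0.11 (SE 0.69, edgeR adjusted p = 0.992). Here Ogt-KD libraries held both extremes. Ighg3, a subclass typical of T cell independent responses, was 1.19, 13.6 and 25.2 against 22.9, 7.30 and 6.99 CPM, and the fold change on the log2 scale was -0.10 (SE 0.92, edgeR adjusted p = 0.994). Its highest and lowest values were both in control libraries.

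Ighe, the epsilon chain of IgE, did not pass the filter on low counts. It had 2, 39 and 1 reads in control libraries and 2, 5 and 6 in Ogt-KD libraries. Control replicate 2 stood alone: its 39 reads were 0.0735% of its heavy chain constant counts (95% Wilson interval 0.0537 to 0.1004).

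Igha, the alpha chain of mucosal IgA, was 217, 879 and 865 CPM in control and 856, 402 and 622 in Ogt-KD libraries. Control replicate 1 was lowest and the other control libraries highest, and the log2 fold change was -0.06 (SE 0.52, edgeR adjusted p = 0.993). Igkc, shared by antibodies of every class that carry a kappa chain, was 122, 605 and 562 against 496, 260 and 373 CPM. It had the same lowest library as Igha, and its log2 fold change was -0.19 (SE 0.55, edgeR adjusted p = 0.981). Kappa made up 83.5, 92.8 and 93.6% of light chain constant counts in control and 92.7, 88.6 and 90.8% in Ogt-KD libraries. The lambda constant gene Iglc1 was 13.2, 28.0 and 23.0 against 20.3, 15.7 and 15.3 CPM, overlapping between groups.

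The share of each isotype was taken among the counts of the 8 heavy chain constant genes in a library. These counts summed to 15561, 53087 and 34020 in control and 37145, 23405 and 34477 in Ogt-KD libraries. IgM and IgA together dominated every library. Ighm took 61.6, 41.8 and 29.6% of counts in control and 39.9, 57.1 and 44.5% in Ogt-KD libraries. The groups overlapped, with a mean difference of 2.78 percentage points (two-sided exact permutation p = 0.9; the smallest this design allows is 0.1). Igha took 30.5, 41.1 and 45.1% against 47.1, 33.9 and 45.1%, a difference of 3.12 points (exact permutation p = 0.6). Control replicate 1 and Ogt-KD replicate 2, the libraries with the fewest heavy chain constant counts, had the highest Ighm and the lowest Igha shares. Counting error was small beside these gaps, the widest 95% Wilson interval of any share spanning 1.53 points.

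**Figure D2:**
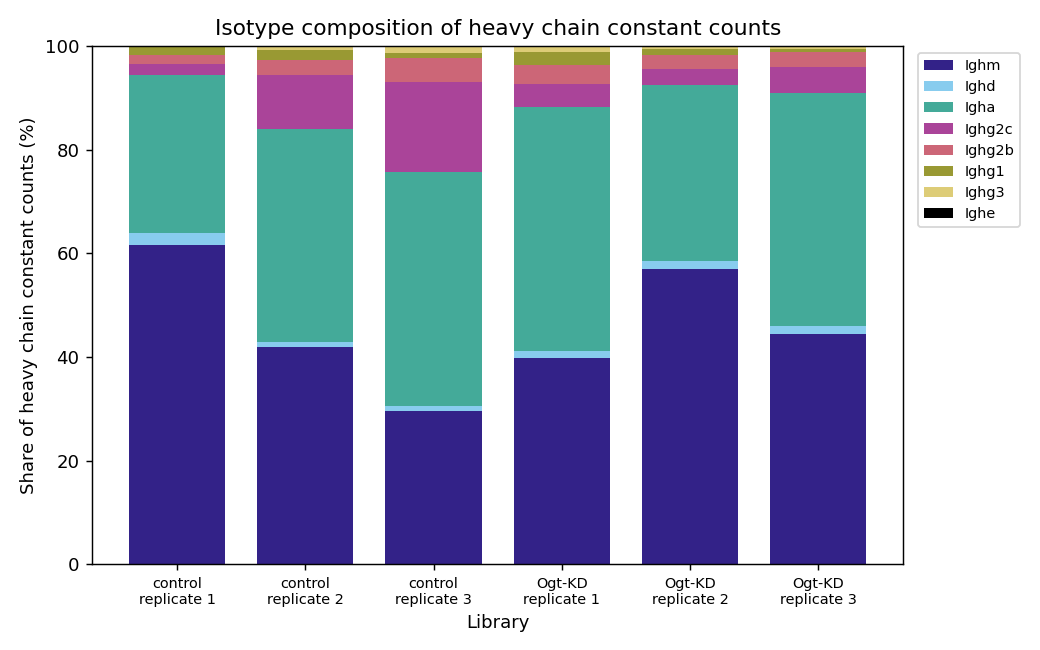
Stacked bars of the share of each isotype (y axis, % of the counts of the 8 heavy chain constant genes) in each of the 6 libraries (x axis). Ighm and Igha fill most of every bar, and the Ighg2c band is widest in control replicates 2 and 3, at 10.4 and 17.3%.

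The share of Ighg2c spanned a wider range in control than in Ogt-KD libraries. It was 2.25, 10.4 and 17.3% in control and 4.36, 2.94 and 4.87% in Ogt-KD libraries, 9.96 ± 7.52 against 4.06 ± 0.997 (SD, n = 3). Control replicate 1 fell below all Ogt-KD libraries, so the groups overlapped, and the difference of -5.90 points had an exact permutation p of 0.4. Ighd took 0.988 to 2.26% in control and 1.31 to 1.56% in Ogt-KD libraries, Ighg3 0.167 to 1.32% and 0.508 to 1.26%, Ighg1 1.08 to 1.94% and 0.629 to 2.49%, and Ighg2b 1.72 to 4.60% and 2.74 to 3.66%. These 4 overlapped between groups, each with an exact permutation p of 1. Switched classes together made up 36.1, 57.1 and 69.4% against 58.8, 41.4 and 54.1% of heavy chain constant counts, also overlapping.

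Within the IgG genes alone, Ighg2b and Ighg3 took larger shares in the 3 Ogt-KD than in the 3 control libraries. Ighg2b was 30.4, 18.7 and 19.0% of the 4 genes' counts in control and 31.1, 36.8 and 33.1% in Ogt-KD libraries, 22.7 ± 6.69 against 33.7 ± 2.90. The groups did not overlap, and the exact permutation p was 0.1, the smallest possible. Ighg3 was 2.96, 4.0005 and 5.43% against 10.7, 8.26 and 5.65%, 4.13 ± 1.24 against 8.20 ± 2.53, also without overlap at p = 0.1 (exact permutation). The shares sum to 100%, so they are not independent: the mean Ighg2c share was lower by 15.1 points, and in CPM Ighg2b and Ighg3 had log2 fold changes of -0.23 and -0.10 with overlapping groups. The margins were thin: the Wilson interval of Ighg2b in control replicate 1 was 27.5 to 33.5% and that of Ighg3 in Ogt-KD replicate 3 was 4.89 to 6.52%, each covering the nearest library of the other group. Counted per kilobase of the deposited gene length, the difference for Ighg2b had an exact permutation p of 0.2.

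Ighg2c and Ighg1 overlapped on this scale. Ighg2c was 39.9, 65.1 and 71.2% against 37.1, 39.5 and 54.2% (difference -15.1 points, exact permutation p = 0.2). Within replicate numbers it was lower in Ogt-KD in 3 of 3 pairs (exact sign-flip permutation p = 0.25, the smallest 3 pairs allow). Other scales did not share this. Among the 8 heavy chain genes the Ighg2c share was higher in Ogt-KD for replicate number 1, at 4.36 against 2.25% (exact sign-flip permutation p = 0.5). In CPM it was also higher there, at 79.4 against 16.0. For replicate numbers 2 and 3 both were lower in Ogt-KD. No label pairs these libraries. Over genes, Ogt-KD replicate 1 correlated more with control replicate 2 (0.267) than with control replicate 1 (0.109). Ighg1 was 26.8, 12.2 and 4.47% against 21.2, 15.4 and 7.01% (exact permutation p = 1). The ratio of Ighg2c to Ighg1 counts, a common readout of interferon gamma against interleukin 4 help, was 1.49, 5.35 and 15.9 in control and 1.75, 2.56 and 7.73 in Ogt-KD libraries, so the range within each group exceeded any gap between them. The ratio of Ighg2c to Ighg2b, added after the values were seen, was 1.31, 3.48 and 3.75 against 1.19, 1.07 and 1.64. Control replicate 1 fell among the Ogt-KD libraries there, and the ratio was lower in Ogt-KD in 3 of 3 pairs. The ratio of Ighg2c to Ighg1 was higher in Ogt-KD for replicate number 1, at 1.75 against 1.49.

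**Figure D3:**
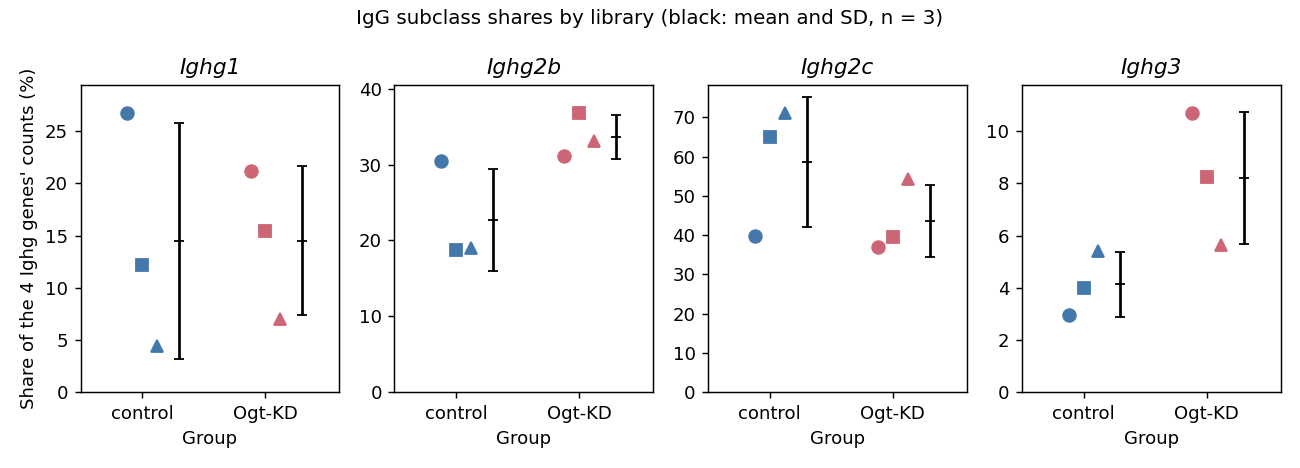
Share of each IgG gene in the summed counts of the 4 Ighg genes (y axes, %) for control (blue) and Ogt-KD (red) libraries, 1 point per library shaped by replicate number (circle 1, square 2, triangle 3), with the mean and SD (n = 3) in black. Ighg2b and Ighg3 do not overlap between groups, with 30.4 against 31.1% and 5.43 against 5.65% at the nearest, while Ighg1 and Ighg2c overlap.

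The range over libraries set the constant genes apart from each other. The highest library exceeded the lowest 21.3 times for Ighg3, 20.7 times for Ighg2c, 7.23 times for Ighg2b, 5.23 times for Ighg1, 4.95 times for Igkc and 4.06 times for Igha, but only 2.04 times for Ighm and 1.48 times for Ighd. Control replicate 1 was lowest for every tested member except Ighg1, and without it the ratio fell to 3.61 for Ighg3, 9.48 for Ighg2c, 2.71 for Ighg2b, 2.32 for Igkc and 2.18 for Igha. In within-group SD of log2 CPM the 4 IgG genes, Igha and Igkc ranked at the 98.4th to 99.9th percentile of all genes tested, Ighm at the 80.3rd and Ighd at the 49.6th. Members summed to 0.0801, 0.273 and 0.243% of counts in control and 0.242, 0.150 and 0.171% in Ogt-KD libraries.

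The plasma cell markers Jchain, Mzb1 and Sdc1 had a similar low in control replicate 1. Jchain, which joins IgM and IgA into polymers, was 60.7, 217 and 217 CPM in control and 165, 91.9 and 220 in Ogt-KD libraries. Mzb1, an endoplasmic reticulum chaperone cofactor, was 4.80, 18.5 and 13.1 against 13.7, 7.40 and 15.7, and Sdc1, the plasma cell surface proteoglycan CD138, was 0.548, 2.94 and 2.82 against 2.30, 2.33 and 1.76. All 3 were lowest in control replicate 1 and overlapped between groups. Of 14 plasma cell markers tested, 11 were lowest in that library, against 5 of 16 B cell markers. The matching share over all genes tested was not counted, so these counts are a description. The low was not equally deep among the 11. The highest library exceeded it 5.36 times for Sdc1, 3.85 times for Mzb1 and 3.63 times for Jchain. For Irf4, Tnfrsf13b and Xbp1 it did so only 1.42, 1.39 and 1.31 times. The exceptions among plasma cell markers were Derl3 and Creld2, lowest in Ogt-KD replicate 3, and Pou2af1, lowest in Ogt-KD replicate 2. The highest-to-lowest ratio had a median of 1.78 for plasma cell markers (1.31 to 5.36). It was 1.94 for B cell markers (1.28 to 2.50) and 1.35 for 10 T cell markers (1.19 to 1.58).

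**Figure D4:**
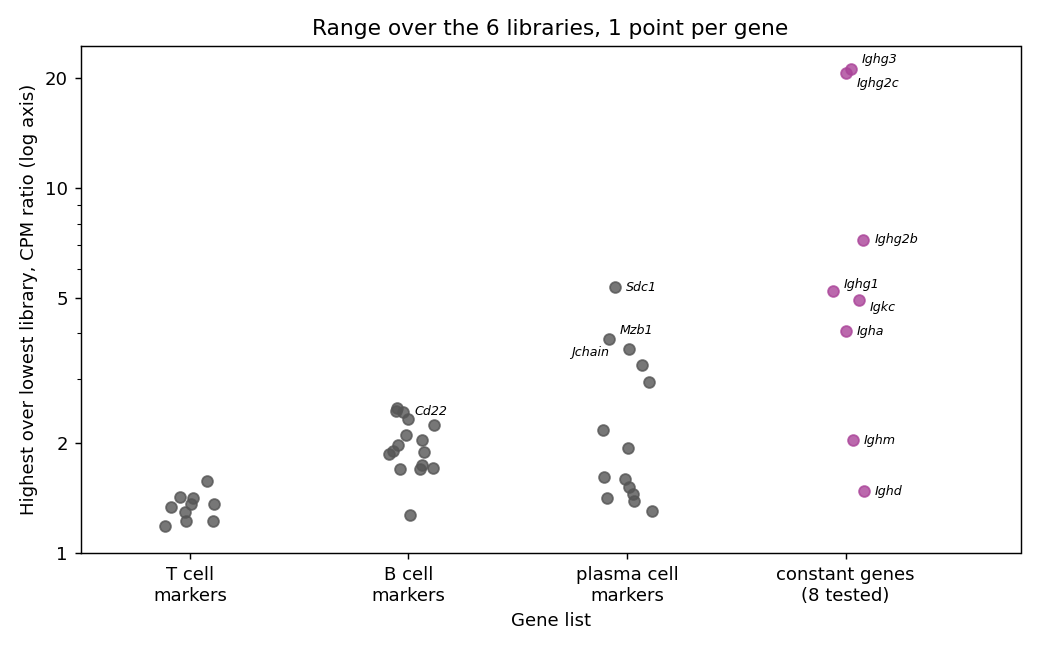
Ratio of the highest to the lowest of the 6 libraries in CPM (log y axis), 1 point per tested gene, for T cell, B cell and plasma cell markers (grey) and the 8 tested constant genes (purple); horizontal scatter within a list has no meaning. T cell markers reach at most 1.58, whereas Ighg3 and Ighg2c reach 21.3 and 20.7.

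Between groups, the marker lists for B lineage cells held no gene called by edgeR. Of all 16075 genes tested, 7877 had a log2 fold change above 0. Markers of 1 cell type can rise and fall together, so the directions within a list are not independent. B cell markers were above 0 in log2 fold change for 14 of 16 (median 0.30, summed level 175, 231 and 183 against 274, 250 and 199 CPM). The smallest p among them was that of Cd22, an inhibitory co-receptor, whose log2 fold change was 0.71 (edgeR adjusted p = 0.624), the only B cell marker under an unadjusted p of 0.05. Plasma cell markers split 7 above and 7 below (median -0.02, summed level 366 to 642 against 459 to 604 CPM), with Prdm1, a regulator that T cells also express, at 0.69 (edgeR adjusted p = 0.483; 0.0372 by DESeq2). Germinal centre B cell markers were 4 above and 2 below. Markers of other spleen cells, none of them called by edgeR and 4 dendritic cell and 3 erythroid markers under an unadjusted p of 0.05, had these directions of log2 fold change: 11 of 11 dendritic cell markers (median 1.07), 7 of 7 neutrophil markers (0.32) and 8 of 8 erythroid markers (1.53) were above 0, and 8 of 10 macrophage markers were below (-0.50). Summed levels were 571 to 1209 against 1045 to 2807 CPM for the dendritic cell list. The neutrophil list had 98.0 to 206 against 112 to 265. For the macrophage list they were 1763 to 4053 against 897 to 3672, and for the erythroid list 20.02 to 54.2 against 49.1 to 214. The part of these cells in the constant gene values was not tested.

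Genes that act on the constant regions held none called by edgeR either. Of 23 class switch recombination genes tested, 11 were above 0 and 12 below (median -0.03), and their summed level was 1096, 1039 and 1030 CPM in control against 965, 982 and 948 in Ogt-KD libraries, without overlap. Among them Parp3, a DNA break sensor, at -0.31 was the only one under an unadjusted p of 0.05. Of 8 switch-directing helper signals tested, 4 were above and 4 below. Ifng, which encodes interferon gamma, was 6.62, 6.28 and 5.86 CPM in control and 17.8, 19.8 and 9.75 in Ogt-KD libraries. All Ogt-KD libraries were higher, as for 7.43% of all genes tested, and its log2 fold change was 1.33 (SE 0.27, edgeR adjusted p = 0.483; 0.00263 by DESeq2). Il4 was 2.06, 2.05 and 3.10 against 2.84, 1.47 and 3.44 CPM, overlapping. Of 8 Fc receptor genes tested 3 were above and 5 below (median -0.26), with Fcgr1, the high-affinity IgG receptor of myeloid cells, at -1.02 and under an unadjusted p of 0.05; 10 genes of B cell receptor signalling had a median of 0.14 with none under it.

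The variable (V) segments, which encode the antigen-binding end of the chains, were summarised by the segments with the highest counts of each locus. Ighv1-26 was the leading heavy chain V segment in all 6 libraries, with 7.55, 13.6 and 56.2% of Ighv counts in control and 39.7, 18.9 and 49.3% in Ogt-KD libraries. Igkv4-59 led the kappa V segments in 5 of 6 libraries, with 4.04, 8.96 and 42.3% against 27.8, 15.7 and 41.2% of Igkv counts. Both shares were lowest in control replicate 1 and highest in control replicate 3, in the same order over the 6 libraries. The shares overlapped between groups and were not tested. In CPM neither segment differed between groups beyond the spread (log2 fold changes -0.05 and 0.13, edgeR adjusted p = 0.998 and 0.992). The next heavy chain segments, Ighv3-6 and Ighv8-8, held 2.17 to 4.68% and 1.15 to 5.81%. Among the lambda V segments Iglv1 led in all 6 libraries, with 77.4, 79.8 and 81.5% of Iglv counts in control and 71.4, 62.0 and 63.5% in Ogt-KD libraries. These shares did not overlap and were not tested; in CPM the log2 fold change of Iglv1 was -0.50 (SE 0.42, edgeR adjusted p = 0.889).

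**Figure D5:**
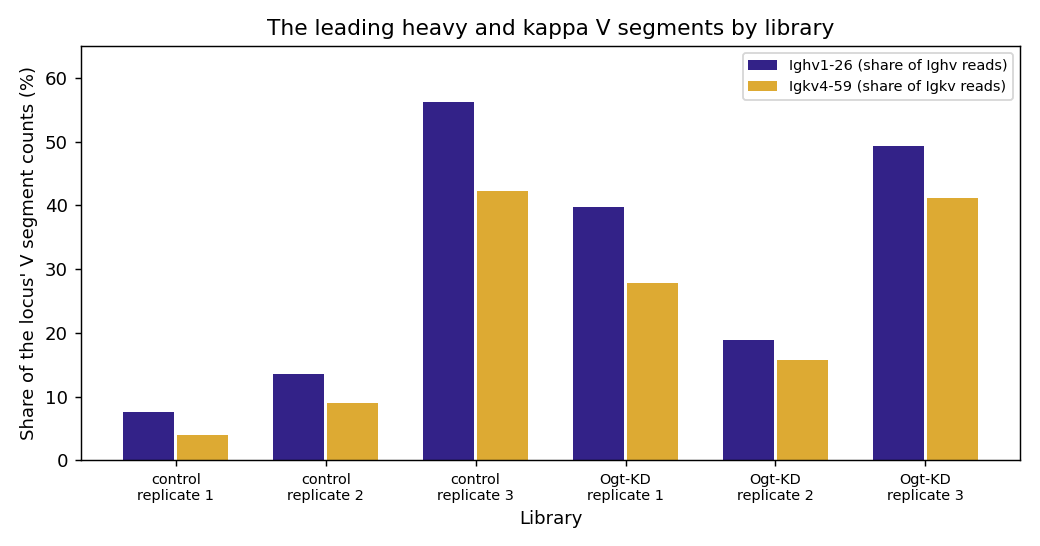
Share of Ighv1-26 in all Ighv counts (dark) and of Igkv4-59 in all Igkv counts (yellow), in % on the y axis, for the 6 libraries on the x axis. Both bars are lowest in control replicate 1, at 7.55 and 4.04%, and highest in control replicate 3, at 56.2 and 42.3%.

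V segments of a family resemble each other, so these counts are less certain than those of the constant genes. The closest annotated relative of Ighv1-26 was Ighv1-18, 96.87% identical over the coding sequence, and a 60-base stretch of both is shown with the differing bases in capitals.
Ighv1-26: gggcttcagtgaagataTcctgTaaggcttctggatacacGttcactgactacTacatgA
Ighv1-18: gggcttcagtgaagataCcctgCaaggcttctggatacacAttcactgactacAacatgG
For Igkv4-59 the closest was Igkv4-70, at 96.31%. Of 50-base stretches, 49.0% of Ighv1-26 and 74.3% of Igkv4-59 were shared with another gene, and 7.94 and 20.4% of 100-base stretches.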

How the data were processed

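The gene counts, FPKM values, gene lengths (another deposited column) and the authors' comparison were used. The authors deposited raw read counts per gene, and FPKM, normalised signal per group, log2 fold changes and p-values made from them. Per the submitters' processing notes, reads were handled with Bowtie2 2.0.6 and TopHat2 2.0.9 and the build mm9 is named; the gene counter, its strand setting and the annotation are each not given in the sources used here. All 9 members' deposited coordinates were identical to GENCODE release M21 on GRCm38, which is the build printed and the source of every sequence. Libraries held 18127031 to 25683453 counts; without molecular identifiers, intervals cover counting error only.

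The 6 libraries were grouped by genotype, 3 against 3. No label says that libraries came from separate mice, so p-values measure the spread between these libraries, which may be technical; no pair of libraries agreed within sampling noise. Counts were tested with edgeR 4.0.16 (TMM, filterByExpr, quasi-likelihood test, Benjamini-Hochberg over 16075 genes, threshold 0.05) in R 4.3.3; DESeq2 1.42.0, limma-voom (limma 3.58.1), other scalings, no filter, a replicate block and leaving out libraries were alternatives. The code was tested on simulated data. Shares were compared by a two-sided exact permutation test in SciPy 1.17.1. Same-numbered libraries deviated together (correlations 0.109, 0.347 and 0.523 over genes), the only source of the pairing; for number 1 it is weak, since Ogt-KD replicate 1 correlated more with control replicate 2 (0.267).

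All 9 members are named; other genes are those with the smallest p of each list (up to 4) and a fixed set of markers, and for V segments the highest of each locus. Some genes of the lists are not reported here. Members and lists were chosen with earlier results of these data known.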

Additional observations from a re-analysis of the deposited data

How the results depend on the processing

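The members' calls were 0 under every alternative run. With the replicate block, 47 genes of the whole table were called in place of 1, with no filter 4, without both replicate 3 libraries 35, with DESeq2 111 and without 1 library 1 to 2; DESeq2's calls included Prdm1, Ifng and Ighj1, and without both replicate 3 libraries Ifng had an adjusted p of 0.0462. The signs of small differences depended on the processing. With the replicate block the log2 fold changes of Ighg3, Igha and Igkc were 0.026, 0.070 and 0.0012; with limma-voom those of Ighg3, Ighg2b, Igha and Igkc were 0.53, 0.15, 0.12 and 0.064; without both replicate 3 libraries those of Ighg3, Ighg1, Ighg2b, Igha and Igkc were 1.02, 0.17, 0.38, 0.20 and 0.054. Leaving out 1 library, they ranged from -0.12 to 0.42 for Ighm, -0.019 to 0.23 for Ighd, -0.90 to 0.71 for Ighg3, -1.13 to 0.51 for Ighg1, -0.70 to 0.28 for Ighg2b, -0.48 to 0.21 for Igha and -0.63 to 0.13 for Igkc; Ighg2c stayed below 0, at -2.19 to -0.99.

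Differences of isotype share reversed without both replicate 3 libraries for Ighm (-3.27 points) and Ighg1 (0.0965), per kilobase of deposited length for Ighd (0.0440) and within the IgG genes for Ighg1 (0.0617). Leaving out 1 library, they ranged from -4.59 to 11.4 for Ighm, -0.233 to 0.404 for Ighd, -0.183 to 0.392 for Ighg3, -0.621 to 0.309 for Ighg1, -0.662 to 0.780 for Ighg2b, -0.0284 to 0.00682 for Ighe and -1.10 to 7.18 for Igha, and for Ighg2c from -9.76 to -2.25. Within the IgG genes the difference for Ighg1 ranged from -4.94 to 6.21, whereas Ighg2b (8.996 to 14.9) and Ighg3 (2.83 to 5.35) stayed above 0; these settings were chosen after seeing the data. The cause of these changes was not tested. With 3 libraries a group, differences within several-fold could not be told from the spread for the IgG genes.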

Other observations

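The joining segments of the heavy chain locus, looked at after their values were seen, were higher in Ogt-KD than in control libraries. Ighj1 to Ighj4 (chr12:113428514-113429833 on GRCm38) lie between the V segments and Ighm; one of them is joined into each rearranged heavy chain gene, and they summed to 6.12, 14.5 and 7.89 CPM in control and 21.2, 21.7 and 19.4 in Ogt-KD libraries. All 4 lay higher without overlap, as 7.43% of all genes tested did. For Ighj1 the log2 fold change was 1.28 (SE 0.29, edgeR adjusted p = 0.496, unadjusted p = 0.00269; adjusted p = 0.0755 with the replicate block and 0.0205 by DESeq2), and Ighj2, Ighj3 and Ighj4 had 1.06, 1.16 and 1.02. None passed the edgeR threshold. The 4 are close neighbours and cannot be taken as independent. The D segment Ighd4-1 beside them was 1.46, 2.70 and 1.75 against 2.40, 2.99 and 2.64 CPM and overlapped.

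The genes outside the immunoglobulin loci whose log2 CPM over the 6 libraries was most like that of Ighm were Gm15337, Dpy19l3, Plpp5, Eif4e2 and Agap2, with Pearson's r of 0.979 to 0.971 as a description. For Igkc they were led by Scd2 at 0.971, and for the summed switched classes by Gdpd3 at 0.976; the points share their libraries and depths.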
